A study of Mus musculus with 4 samples.

Results

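The chemokines described here are 10 genes made by myeloid cells, the CXC genes Cxcl1, Cxcl2 and Cxcl3 and the CC genes Ccl2, Ccl3, Ccl4, Ccl5, Ccl6, Ccl7 and Ccl9, measured in cultured mouse leukaemia cells with and without Tet2. They were taken by name from the deposited expression table and make up 10 of its 24497 gene rows. The set was chosen by how the table's values differed between the genotypes, so the values of these genes in that comparison are a description, given without a test. The cells were of an acute myeloid leukaemia model with NRAS and AE9a, the latter a truncated form of the fusion protein AML1-ETO. Haematopoietic stem cells of the bone marrow were their source, taken either from wildtype animals (WT, 2 libraries) or from Tet2-/- animals with exon 3 of the gene deleted (labelled Tet2 KO, 2 libraries). Cells of both genotypes had the same oncogenes and the same culture, RPMI 1640 medium with murine SCF (50 ng/ml), IL-3 with IL-6 (10 ng/ml), G418 (1 mg/ml) and puromycin (2 µg/ml), and no treatment is listed. The sources used here do not give animal age or how many animals or clones stand behind each line. Nothing shows that libraries within a genotype are separate cultures, so every p-value measures the spread between these libraries only, which may be technical.

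Chemokines are small secreted proteins that bind G protein-coupled receptors on leukocytes and direct their migration. Cxcl1, Cxcl2 and Cxcl3 bind Cxcr2 and draw neutrophils to sites of inflammation. Ccl2 and Ccl7 bind Ccr2 and draw monocytes out of the bone marrow. Ccl3, Ccl4 and Ccl5 draw monocytes and T cells, and Ccl6 and Ccl9 are ligands of Ccr1 that are abundant in mouse myeloid cells. Many of these genes are induced within minutes to hours through NF-kB and AP-1, and their messenger RNAs are short-lived. The RNA was measured here, not the secreted protein.

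The genes lie in 3 groups on the mm10 build, a CXC group on chromosome 5, Ccl2 with Ccl7 on chromosome 11, and Ccl5, Ccl9, Ccl6, Ccl3 and Ccl4 further along chromosome 11. RefSeq (GRCm38.p6) gave the sequence before the start site for 6 of the 10, namely Cxcl1, Cxcl2, Cxcl3, Ccl3, Ccl6 and Ccl9. The 100 bases before the start are shown for the CXC genes, which share a stretch of letters although their RNA levels were far apart, and for Ccl3 and Ccl6, the most abundant of the 10, which lack it. Capitals mark the longest stretch common to the 3 CXC windows, GGGAATTTCCC, whose letters are of the kappaB type bound by NF-kB, and the TATA type letters ATAAAAG, which do not overlap it.
Cxcl3, chr5:90786001-90786100, plus strand: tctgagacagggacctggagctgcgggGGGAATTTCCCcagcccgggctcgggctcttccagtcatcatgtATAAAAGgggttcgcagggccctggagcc
Cxcl2, chr5:90903799-90903898, plus strand: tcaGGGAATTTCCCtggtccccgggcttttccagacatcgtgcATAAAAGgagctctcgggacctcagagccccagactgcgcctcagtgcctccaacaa
Cxcl1, chr5:90891145-90891244, plus strand: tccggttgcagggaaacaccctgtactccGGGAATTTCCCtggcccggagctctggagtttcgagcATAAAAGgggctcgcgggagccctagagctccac
Ccl3, chr11:83649379-83649478, minus strand: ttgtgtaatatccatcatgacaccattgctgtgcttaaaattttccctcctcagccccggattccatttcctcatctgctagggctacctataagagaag
Ccl6, chr11:83593088-83593187, minus strand: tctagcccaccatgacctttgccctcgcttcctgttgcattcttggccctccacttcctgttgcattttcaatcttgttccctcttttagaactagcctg

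The stretch GGGAATTTCCC is 11 bases long and begins 73 bases before the start of Cxcl3, 97 bases before that of Cxcl2 and 71 bases before that of Cxcl1. Its presence in all 3 follows from how it was found. On both strands of the 250 bases before each start, it was in 14 of 32851 windows of the RefSeq table, or 0.0426%. ATAAAAG begins 29, 57 and 34 bases before the start of Cxcl3, Cxcl2 and Cxcl1, is also in the Ccl9 window, and was in 4.83% of all windows. Aligned over 100 bases, Cxcl1 and Cxcl3 shared 72 identical bases, Cxcl1 and Cxcl2 60 and Cxcl2 and Cxcl3 58, and pairs with a CC gene 46 to 59. Distances and windows use RefSeq starts, which for Cxcl2 is 90903899. The GENCODE M21 start of Cxcl2 given below, 90903871, lies inside the printed window. The distances and identities of Cxcl2 therefore depend on the annotation. The same holds, over fewer bases, for Ccl3, Cxcl1 and Cxcl3. Their starts are 83649378, 90891245 and 90786101 in RefSeq and 83649355, 90891241 and 90786103 in GENCODE M21. Tested genes had 11311 windows, with none for Ccl2, Ccl4, Ccl5 and Ccl7. Apart from Cxcl2 and Cxcl3, only 3 tested genes had the shared stretch in these windows, Il16, Zfp84 and Hpn. Their log2 fold changes on the scale defined below were 0.27, 0.35 and -0.39. That of Il16 was -0.0226 after the spike-in scaling described below.

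Levels are given in TPM, shares of a library's transcripts scaled to a fixed total and corrected for transcript length, so levels of different genes can be compared within a library. They keep no sequencing depth, and the depth is unknown. Tet2 had 16.62 and 16.98 TPM in the WT libraries against 16.98 and 16.95 TPM in Tet2 KO, a value over all its exons that does not check the loss of exon 3. Replicates lay close together, with a median absolute log2 difference of 0.0504 between the WT and 0.0716 between the Tet2 KO libraries, against 0.33 to 0.354 between genotypes. The ERCC spike-in RNAs took 4.38 to 4.43% of the WT and 5.33 to 5.48% of the Tet2 KO libraries. The median log2 fold change of all 11452 tested genes, on log2(TPM + 1) and Tet2 KO minus WT, was 0.23. It was 0.03 after scaling by the median ratio and -0.044 after scaling to the spike-ins. Fold differences below are ratios of mean TPM as deposited, and scalings are named where they change a direction. In such bulk RNA, fewer cells of a type and less RNA per cell cannot be told apart.

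Of the 10 chemokines, 9 reached the filter of 1 TPM in at least 2 libraries. In limma, 5 of them lay above and 4 below WT at an adjusted p under 0.05. By the same rule 73.9% of all tested genes were called, 54.4% as higher and 19.5% as lower. After median-ratio scaling 4 chemokines lay above and 5 below WT, against 36.3% and 32.2% of all tested genes. For 86.8% of tested genes the WT and Tet2 KO libraries did not overlap. The libraries of the 2 genotypes did not overlap for any of the 10 chemokines, including Cxcl1. Since the genes were chosen by this comparison, nothing is read from these counts. Among the 9 the differences ranged from 14.4-fold higher for Cxcl3 to 1.74-fold lower for Ccl6.

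**Figure D1:**
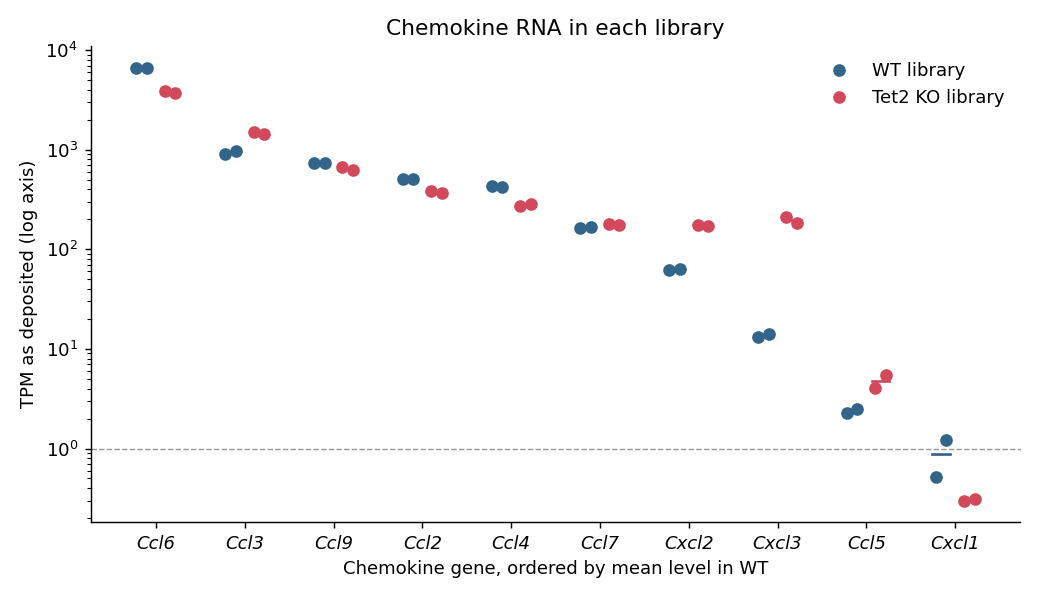
Each point is the level of 1 chemokine gene in 1 library, in TPM as deposited on a log axis, with WT in blue and Tet2 KO in red. Short lines are means of 2 libraries and the dashed line is the filter of 1 TPM. Ccl6 was highest in both genotypes, Cxcl3 averaged 13.7 TPM in WT and 197.9 TPM in Tet2 KO, and Cxcl1 stayed at or near 1 TPM or below.

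The neutrophil chemokines split. Cxcl3 (chromosome 5, 90786103 to 90789600, plus strand, a coding transcript of 4 exons) measured 13.28 and 14.17 TPM in WT against 213.10 and 182.71 TPM in Tet2 KO. Both Tet2 KO libraries were far above both WT libraries, and the spread between them was larger than in WT, with means of 13.7 ± 0.629 and 197.9 ± 21.5 TPM (SD, n = 2). The log2 fold change was 3.75 (SE 0.0714).

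Cxcl2 (chromosome 5, 90903871 to 90905938, plus strand, 3 exons) measured 61.30 and 63.85 TPM in WT against 176.30 and 170.59 TPM in Tet2 KO. This is a 2.77-fold difference in the same direction, with a log2 fold change of 1.46 (SE 0.0482). Cxcl2 and Cxcl3 share 61 stretches of 50 bases, 3.37% of those in the Cxcl2 transcript and 6.31% of those in Cxcl3, so a small part of their reads could have been assigned to either gene. Cxcl3 had 0.217 and 0.222 times the level of Cxcl2 in the WT libraries and 1.21 and 1.07 times its level in Tet2 KO.

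Cxcl1 (chromosome 5, 90891241 to 90893115, plus strand, 4 exons), the third Cxcr2 ligand, had 0.52 and 1.23 TPM in WT against 0.30 and 0.31 TPM in Tet2 KO. It did not reach the filter and was not tested. Its promoter, printed above, carries the same shared stretch as Cxcl2 and Cxcl3, and no 50-base stretch of its transcript occurs in another annotated gene. The 3 CXC genes together summed to 75.1 and 79.3 TPM in WT and to 389.7 and 353.6 TPM in Tet2 KO.

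The monocyte chemokine Ccl2 and its neighbour Ccl7, both ligands of Ccr2, also differed from each other. Ccl2 (chromosome 11, 82035571 to 82037453, plus strand, 3 exons) measured 508.04 and 513.05 TPM in WT against 386.26 and 366.52 TPM in Tet2 KO. That is 1.36-fold lower in Tet2 KO (log2 fold change -0.44, SE 0.0384), and both libraries were below both WT libraries. Ccl7 (chromosome 11, 82045712 to 82047525, plus strand, 3 exons) measured 165.12 and 166.69 TPM in WT against 179.41 and 176.03 TPM in Tet2 KO, 1.07-fold higher (SE of the log2 fold change 0.0425). The direction of Ccl7 depended on the scale, with a log2 fold change of 0.10 as deposited, -0.11 after median-ratio scaling and -0.20 after spike-in scaling. Its place among the 5 higher genes was lost in 7 other settings, among them leaving out WT replicate 1, WT replicate 2 or Tet2 KO replicate 1, with log2 fold changes of 0.092, 0.11 and 0.085.

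Ccl3, Ccl4 and Ccl5, inflammatory CC chemokines, went in different directions. Ccl3, which encodes MIP-1 alpha (chromosome 11, 83647844 to 83649355, minus strand, 3 exons), measured 911.35 and 973.33 TPM in WT against 1495.36 and 1445.50 TPM in Tet2 KO, 1.56-fold higher (log2 fold change 0.64, SE 0.0366). Ccl4, which encodes MIP-1 beta (chromosome 11, 83662584 to 83664683, plus strand, 3 exons), measured 427.78 and 425.44 TPM in WT against 273.47 and 285.77 TPM in Tet2 KO, 1.53-fold lower (log2 fold change -0.61, SE 0.0389). These 2 genes are next to each other and point in opposite directions along the chromosome.

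The ratio of Ccl3 to Ccl4 was 2.13 and 2.29 in the WT libraries and 5.47 and 5.06 in the Tet2 KO libraries. In RefSeq, a long model of Ccl4 (83648624 to 83664683) overlaps Ccl3 by 755 bases on the opposite strand, and in GENCODE M21 the 2 genes do not overlap. The library kit keeps strand, but whether the counting used it is not stated, so the values of both genes carry that uncertainty. Ccl5 (chromosome 11, 83525778 to 83530518, minus strand, 3 exons), which encodes RANTES, measured 2.27 and 2.51 TPM in WT against 4.01 and 5.42 TPM in Tet2 KO, 1.97-fold higher (log2 fold change 0.74, SE 0.125). It was the least precise of the tested chemokines, and its libraries still did not overlap between genotypes.

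Ccl6, the most abundant of the 10 in every library, was lower in Tet2 KO. Ccl6 (chromosome 11, 83587882 to 83593087, minus strand, 4 exons) measured 6580.68 and 6680.37 TPM in WT against 3888.40 and 3737.82 TPM in Tet2 KO. It ranked 14 and 13 among all genes in the WT libraries and 26 and 28 in Tet2 KO, a 1.74-fold lower mean with a log2 fold change of -0.80 (SE 0.0275). The related gene Ccl9 (chromosome 11, 83572919 to 83578636, minus strand, 4 exons), another Ccr1 ligand, measured 729.59 and 729.53 TPM in WT against 665.40 and 625.54 TPM in Tet2 KO. Ccl9 was 1.13-fold lower, by far the smaller difference of the pair, and its log2 fold change of -0.18 (SE 0.0373) became 0.025 after quantile normalization. Of the 50-base stretches of the Ccl9 transcript, 59 (2.0%) also occur in other annotated genes, 463 in all. A small part of its reads could thus have been assigned to other genes. The ratio of Ccl6 to Ccl9 was 9.02 and 9.16 in WT and 5.84 and 5.98 in Tet2 KO.

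**Figure D2:**
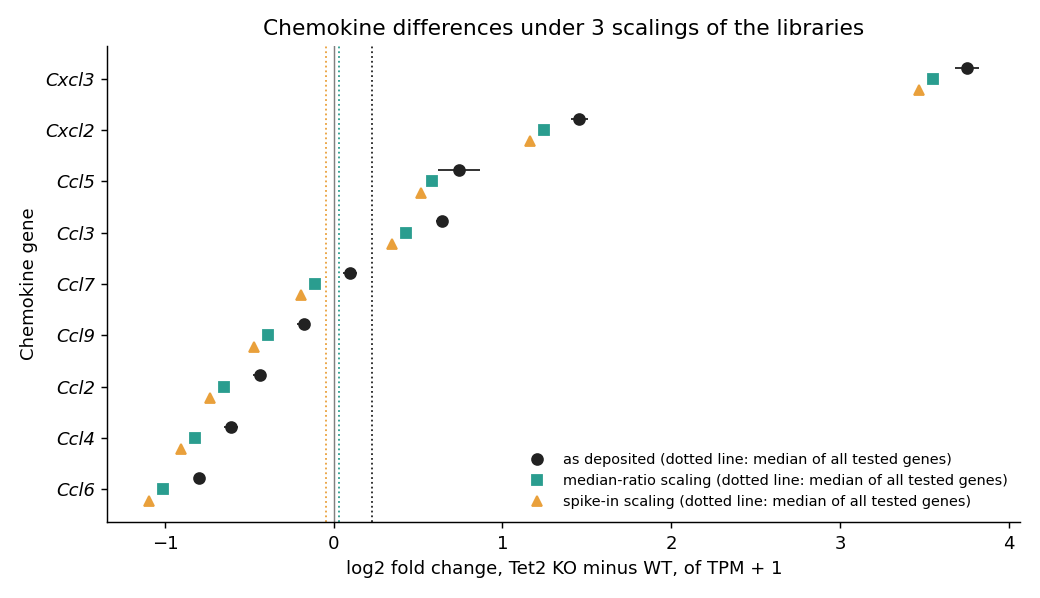
The x axis is the log2 fold change of TPM + 1, Tet2 KO minus WT, for the 9 chemokines that passed the filter, as deposited (circles with SE), after median-ratio scaling (squares) and after spike-in scaling (triangles). Dotted lines are the medians of all tested genes, 0.23, 0.03 and -0.044, and only Ccl7 lay on different sides of 0 under these 3 scalings.

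Scaling moved all 9 genes by a similar amount. After spike-in scaling the log2 fold changes ran from -1.09 for Ccl6 to 3.47 for Cxcl3, and Cxcl2, Ccl5 and Ccl3 stayed above 0 at 1.16, 0.52 and 0.35. Leaving out 1 library at a time, other pseudocounts and other filters kept the sign of every one of the 9 that was then tested. Relative to the median of all genes on the deposited scale, 4 chemokines were higher (Cxcl3, Cxcl2, Ccl5 and Ccl3) and 5 lower (Ccl7, Ccl9, Ccl2, Ccl4 and Ccl6).

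The summed RNA of the 10 genes was lower in Tet2 KO and was made up differently. It was 9400 and 9570 TPM in WT and 7282 and 6996 TPM in Tet2 KO, 1.33-fold lower. Ccl6 was 70.0 and 69.8% of the sum in WT and 53.4% in both Tet2 KO libraries. Ccl3 was 9.7 and 10.2% in WT and 20.5 and 20.7% in Tet2 KO. Cxcl2 and Cxcl3 were each between 0.141 and 0.667% in WT and between 2.42 and 2.93% in Tet2 KO. Without Ccl6 the other 9 genes summed to 2819 and 2890 TPM in WT and to 3394 and 3258 TPM in Tet2 KO. That 1.17-fold higher sum became 1.01-fold higher after median-ratio scaling and 1.05-fold lower after spike-in scaling.

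**Figure D3:**
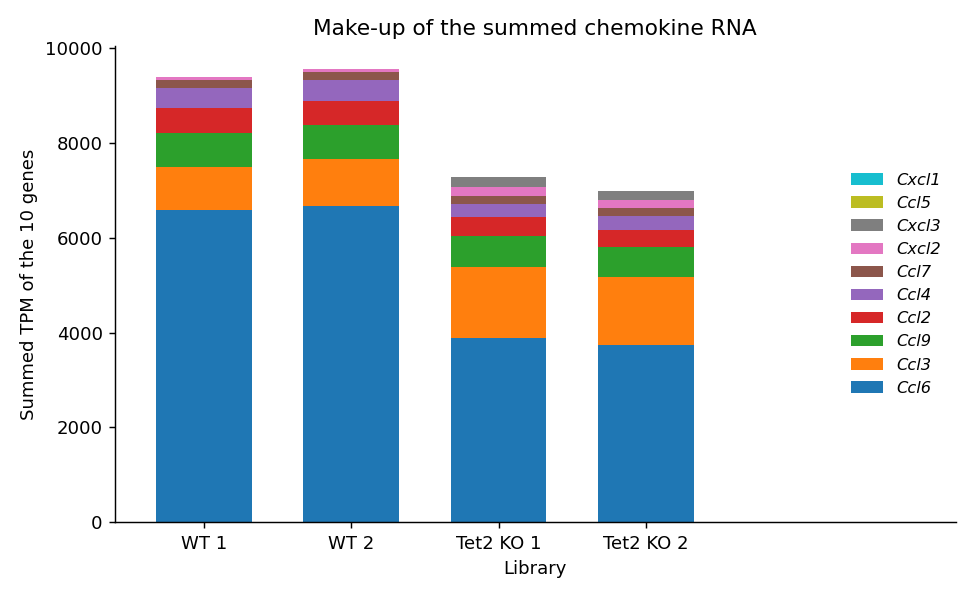
Stacked bars give the TPM of each of the 10 chemokines in each library, from Ccl6 at the bottom. Ccl6 fills 70.0 and 69.8% of the WT bars and 53.4% of both Tet2 KO bars, and Ccl3 is the second segment in all 4.

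The order of levels was the same for the 5 most abundant genes in both genotypes, Ccl6, Ccl3, Ccl9, Ccl2 and Ccl4. In WT they were followed by Ccl7, Cxcl2, Cxcl3, Ccl5 and Cxcl1, and no neighbours in that order overlapped. In Tet2 KO the sixth place was taken by Cxcl3, followed by Ccl7 and Cxcl2. Cxcl3 and Ccl7 differed by 1.11-fold there, with a difference of the means below the SD of Cxcl3, and the libraries of Ccl7 and Cxcl2 overlapped.

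Of the chemokine receptors examined, Cxcr2, Ccr1 and Ccr2 were lower in Tet2 KO and Ccrl2 was higher. The receptors and the other lists below were not used to choose the chemokines and were tested in limma over all genes. These lists were drawn up with earlier results of these data known, so their p-values are not an independent test. Of 9 genes for receptors and their relatives, 4 were tested, of which 3 fell and 1 rose. Among all tested genes 19.5% were lower and 54.4% higher. The median log2 fold change of the 4 was -0.47, against 0.23 for all genes. Cxcr2, the receptor of Cxcl1, Cxcl2 and Cxcl3, measured 95.9 and 98.9 TPM in WT against 50.1 and 48.3 TPM in Tet2 KO (log2 fold change -0.97, limma adjusted p = 8.06e-11). It fell while the RNA of its ligands Cxcl2 and Cxcl3 was higher.

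Ccr1, the receptor shared by Ccl3, Ccl5, Ccl6, Ccl7 and Ccl9, fell from 252.2 ± 8.11 to 187.2 ± 3.23 TPM (limma adjusted p = 1.47e-07). Ccr2, the Ccl2 and Ccl7 receptor, fell from 48.6 ± 2.18 to 33.7 ± 1.97 TPM (limma adjusted p = 1.25e-06). All 3 were lower in both Tet2 KO libraries than in both WT libraries. Ccrl2, a chemerin-binding relative of these receptors that does not signal, rose from 5.59 ± 0.799 to 10.3 ± 0.269 TPM (limma adjusted p = 2.09e-06). Cxcr1, Ccr3, Ccr1l1 and the scavenging receptors Ackr1 and Ackr2 were at 0.33 TPM or below in every library and were not tested. All 4 calls held under every alternative run that tested the gene.

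Other chemokines were scarce, and those tested moved in both directions. Of 24 genes of the list used here, 10 were tested, with 6 lower and 2 higher in Tet2 KO and a median log2 fold change of -0.75. That is 60% lower and 20% higher, beside 19.5% and 54.4% of all tested genes. For 5 of the 10, among them Ppbp, the filter was passed in 1 genotype only, so these had to differ and the counts are a description. The platelet chemokine genes Pf4 and Ppbp, neighbours of Cxcl3, were higher in Tet2 KO. Pf4 measured 13.94 and 11.10 TPM in WT against 68.71 and 71.37 TPM in Tet2 KO (limma adjusted p = 1.69e-08), and Ppbp 0.44 and 1.11 TPM against 5.75 and 7.17 TPM. Ccl12, a Ccr2 ligand, fell from 6.61 ± 1.9 to 1.91 ± 0.834 TPM (limma adjusted p = 0.0184). The Ccr4 ligand genes Ccl17 and Ccl22 were at 3.4 to 5.2 TPM in the WT libraries and between 0 and 0.2 TPM in Tet2 KO. Cxcl10, the interferon-induced Cxcr3 ligand, was at 8.17 ± 0.552 and 8.78 ± 0.276 TPM and was not called (limma adjusted p = 0.346). Its log2 fold change was 0.093 as deposited, -0.096 after median-ratio scaling and -0.17 after spike-in scaling. Of the 14 other chemokine receptors only Cxcr4 was tested, at 102.8 ± 2.02 and 99.99 ± 1.4 TPM.

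Ccl17, Ccl22, Cxcl10, Mthfd2l, Taf15, Wfdc18, E230016K23Rik, Rel, Nfkb1, Rela, Relb, Nfkb2, Adgre1, Pdgfrb, Zc3h12a, Lif, Tnf, Il1b, Il13 and Dpp4 fall outside the rule for naming genes and were chosen after their values were seen. The same holds for Nfkbia, Nfkbib, Nfkbie, Tnfaip3, Rgs1, Rgs2, Rgs18 and Rgs19.

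Genes next to the chemokines on the chromosome lay in different directions around the 3 gene groups, a difference that was not itself tested. Windows ran from 3 measured genes before the first to 3 after the last chemokine of each group. The counts of neighbours stand beside 54.4% higher and 19.5% lower of all tested genes. On chromosome 5, 3 neighbours of the CXC genes were tested. Pf4 and Mthfd2l, a mitochondrial folate enzyme gene that went from 3.57 to 6.26 TPM, rose, and Ppbp was higher in Tet2 KO, the only genotype in which it passed the filter. On chromosome 11 the 1 tested neighbour of Ccl2 and Ccl7 was Ccl12, which fell.

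Of 5 tested neighbours of the Ccl5 to Ccl4 group, 4 fell and 1 rose, beside 19.5% lower and 54.4% higher of all tested genes. Of the 4, Wfdc18 passed the filter in WT only. Just past Ccl4, Wfdc17, a whey acidic protein family gene of myeloid cells, measured 698.84 and 692.15 TPM in WT against 120.15 and 117.67 TPM in Tet2 KO, 5.85-fold lower (limma adjusted p = 2.33e-17). Wfdc21, in the same window, fell from 410.5 ± 14.7 to 180.5 ± 5.74 TPM (limma adjusted p = 5.12e-13). Wfdc18, which lies between them, and E230016K23Rik, a noncoding gene whose RefSeq model spans Ccl6, were the other genes that fell. The reads of a spanning gene may be hard to tell from those of the gene inside it. Taf15, an RNA-binding protein gene on the far side of Ccl5, rose from 99.98 to 176.7 TPM. Higher and lower chemokines were interleaved within this group, with Ccl5 and Ccl3 higher and Ccl9, Ccl6 and Ccl4 lower.

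**Figure D4:**
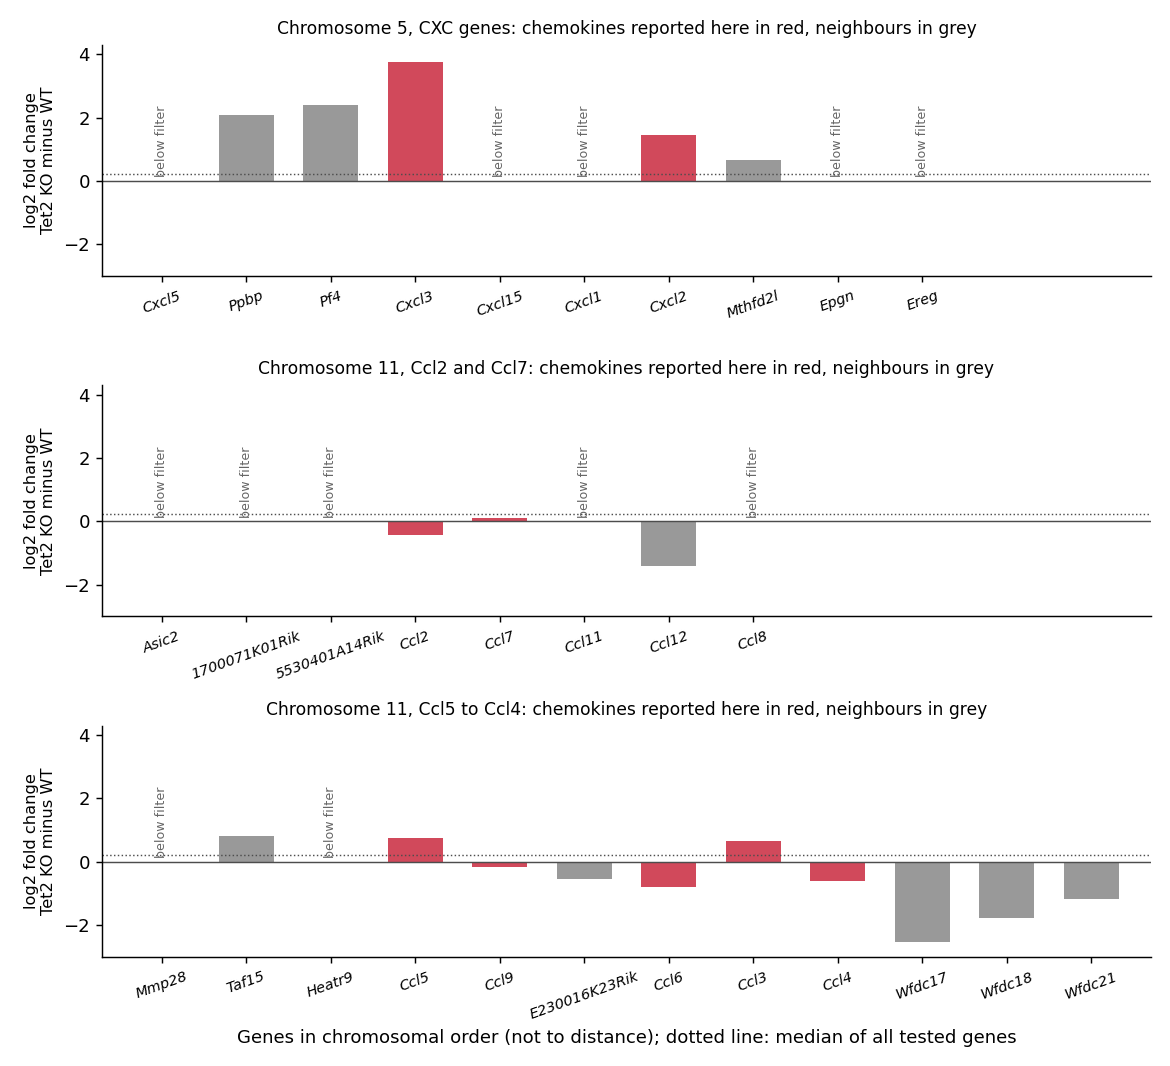
Bars are log2 fold changes of TPM + 1, Tet2 KO minus WT, for genes in chromosomal order around the 3 chemokine groups, with the chemokines described here in red and their neighbours in grey. The tested genes of the chromosome 5 group lie above 0, and the Ccl5 to Ccl4 group on chromosome 11 holds bars on both sides, down to -2.54 for Wfdc17.

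All 24 genes listed for transcription factors and NF-kB regulators known to act on chemokine genes were tested. Of these, 14 rose and 6 fell (median log2 fold change 0.28, all genes 0.23). That is 58.3% higher and 25% lower, beside 54.4% and 19.5% of all tested genes. After median-ratio scaling 11 rose and 8 fell, and after spike-in scaling 8 rose and 9 fell. Nfkbiz, an atypical NF-kB cofactor needed for a subset of inflammatory genes, went from 12.4 and 12.2 to 38.4 and 38.4 TPM, 3.12-fold (limma adjusted p = 2.52e-12). The AP-1 gene Fos rose from 155.03 ± 5.72 to 382.8 ± 7.21 TPM (limma adjusted p = 1.51e-13). Of the 5 NF-kB subunit genes, Rel, Nfkb1, Rela and Relb rose by 1.98-fold, 1.48-fold, 1.45-fold and 1.42-fold. Nfkb2, at 22.8 and 22.2 TPM, was not called (limma adjusted p = 0.608), and its log2 fold change was -0.04 as deposited and -0.24 after median-ratio scaling. The call of Relb was lost after spike-in scaling. Of the NF-kB inhibitor genes on the list, Nfkbia, Nfkbie and Tnfaip3 were called higher and Nfkbib was not called. The calls of Nfkbia and Tnfaip3 were lost after median-ratio and after spike-in scaling, and that of Nfkbie after spike-in scaling. After spike-in scaling the log2 fold changes of Nfkbia and Tnfaip3 were -0.0148 and -0.0128. Nfkbib was called lower after median-ratio scaling, at -0.34, and after spike-in scaling, at -0.42. Irf8, a monocyte and dendritic cell factor, fell from 31.1 ± 0.0778 to 13.3 ± 0.502 TPM (limma adjusted p = 1.57e-10), and the AP-1 gene Fosl1 fell from 6.99 ± 1.03 to 2.65 ± 0.792 TPM (limma adjusted p = 1.11e-04).

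Many chemokine messenger RNAs are AU-rich. Of 13 genes for factors that bind or degrade messenger RNAs (decay factors below), not all through AU-rich letters, 9 rose and 1 fell, with a median of 0.39. That is 69.2% higher and 7.69% lower, beside 54.4% and 19.5% of all tested genes. After median-ratio scaling 7 rose and 3 fell, and after spike-in scaling 6 rose and 4 fell. Zfp36l2, a decay-promoting zinc finger protein gene, rose from 245.9 ± 5.49 to 493.8 ± 3.85 TPM (limma adjusted p = 1.07e-12). The 1 that fell was Zc3h12a, which encodes Regnase-1, a nuclease that degrades inflammatory transcripts. It measured 36.8 and 37.6 TPM in WT against 19.1 and 21.6 TPM in Tet2 KO (limma adjusted p = 1.06e-08).

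Of 21 receptors and adaptors that induce chemokines, 7 rose and 11 fell, with a median of -0.14. Their shares, 33.3% higher and 52.4% lower, stand beside 54.4% and 19.5% of all tested genes. Csf2ra, the GM-CSF receptor alpha chain gene, fell from 148.5 ± 2.8 to 44.3 ± 3.56 TPM (limma adjusted p = 3.15e-13). Tlr1, which pairs with Tlr2 to sense lipopeptides, fell from 5.72 ± 0.403 to 1.47 ± 0.0849 TPM (limma adjusted p = 6.47e-09). Il1rl1, the IL-33 receptor gene, rose from 33.2 ± 0.573 to 99.9 ± 1.05 TPM (limma adjusted p = 2.56e-13). Of 14 cytokine and inflammatory genes often induced with chemokines, 11 were tested, and 3 rose and 7 fell, among them Il13, which passed the filter in WT only. Their median was -0.38, with 27.3% higher and 63.6% lower, beside the same shares of all tested genes.

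The 3 that rose were the interleukin gene Il6, from 27.4 ± 0.212 to 64.9 ± 3.7 TPM (limma adjusted p = 2.32e-11), the prostaglandin synthase gene Ptgs2, from 8.82 ± 0.622 to 25.1 ± 2.39 TPM (limma adjusted p = 2.58e-10), and Lif, by 1.95-fold. Il1a fell from 16.3 ± 1.41 to 6.26 ± 0.75 TPM (limma adjusted p = 6e-09), and the IL-1 receptor antagonist gene Il1rn from 278.4 ± 1.4 to 134.7 ± 4.2 TPM (limma adjusted p = 2.89e-12). Tnf and Il1b fell by 1.49-fold and 1.89-fold.

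Downstream of the receptors, 16 of 24 signalling genes rose and 5 fell (median 0.33), 66.7% and 20.8% beside 54.4% and 19.5% of all tested genes. After median-ratio scaling 12 rose and 8 fell, and after spike-in scaling 8 rose and 10 fell. Rgs16, which ends G protein signals, fell from 11.3 ± 0.134 to 4.31 ± 0.283 TPM (limma adjusted p = 4.79e-09). Of the other RGS genes on the list, Rgs1, Rgs2 and Rgs18 rose by 1.81-fold, 1.52-fold and 1.33-fold, and Rgs19 was not called. The call of Rgs18 was lost after spike-in scaling. Rgs19 was called lower after median-ratio scaling, at a log2 fold change of -0.18, and after spike-in scaling, at -0.26. Pik3r5, a regulatory subunit gene of PI3-kinase gamma, fell from 26.04 ± 0.983 to 11.9 ± 0.46 TPM (limma adjusted p = 9.29e-10). Of 9 proteases that cut chemokines, 8 were tested, and 7 fell and 1 rose (median -1.09). These shares, 87.5% and 12.5%, stand beside 19.5% lower and 54.4% higher of all tested genes. Mmp12, the macrophage elastase gene, fell from 1276 ± 16.1 to 256.02 ± 8.84 TPM (limma adjusted p = 3.31e-17), and Ctss, the cathepsin S gene, from 499.02 ± 8.1 to 128.1 ± 6.4 TPM (limma adjusted p = 1.45e-15). The neutrophil elastase gene Elane fell from 38.2 ± 1.35 to 10.8 ± 0.212 TPM (limma adjusted p = 1.15e-12) and the neutrophil collagenase gene Mmp8 from 1161 ± 34.4 to 487.1 ± 11.3 TPM (limma adjusted p = 3.6e-14). Dpp4, the protease gene that rose, was at 0.31 TPM in WT and 1.99 TPM in Tet2 KO and passed the filter in Tet2 KO only.

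**Figure D5:**
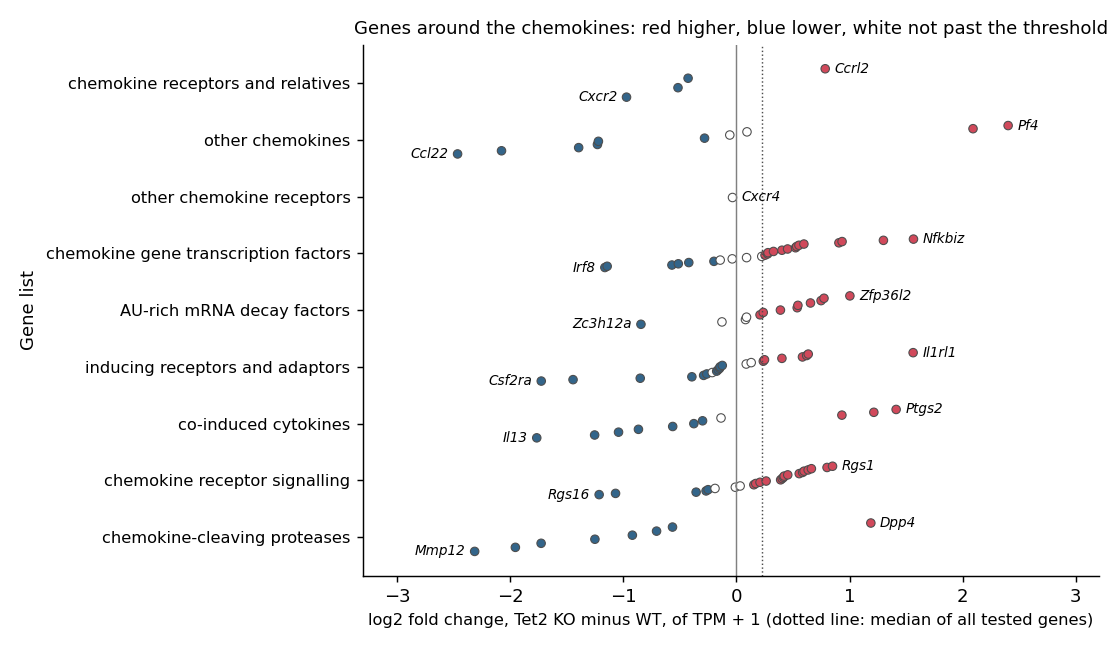
Each point is a tested gene of a list around the chemokines, placed by its log2 fold change of TPM + 1, Tet2 KO minus WT, with red for higher, blue for lower and white for genes that did not pass limma at an adjusted p of 0.05. The genes at the ends of each list are named, and the tested receptors that bind the chemokines, Cxcr2, Ccr1 and Ccr2, lie below 0 and Ccrl2, which does not signal, at 0.78.

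Markers of the cell types that could carry these transcripts moved as well. The marker counts here and in the next paragraph stand beside 54.4% higher and 19.5% lower of all tested genes. All 9 myeloid markers examined, among them Itgam, Spi1 and Ptprc, were expressed in every library, from 20.05 TPM upward. In Tet2 KO 5 of the 9 were higher (55.6%) and 4 lower (44.4%). All 8 mature neutrophil markers fell, and their summed level was 29466 to 29619 TPM in WT and 13026 to 13466 TPM in Tet2 KO, mostly S100a8 and S100a9. Cxcr2 and Mmp8 are counted both there and in the lists above. Of 8 macrophage and monocyte markers 6 were tested, and 5 fell and Adgre1 rose (all 6 were lower after median-ratio scaling), with sums of 2208 to 2264 TPM in WT and 1504 to 1538 TPM in Tet2 KO. The tissue macrophage genes Marco and Vsig4 were at 0.09 TPM or below in every library. These lists moved with Ccl6, Ccl2 and Ccl4, and their part in the chemokine differences was not tested.

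Of the 8 markers of mast cells and basophils 7 were tested, with 2 higher and 5 lower in Tet2 KO and sums of 2080 to 2099 TPM in WT and 4996 to 5186 TPM in Tet2 KO, most of it Cpa3, and Fcer1a was at 0.81 TPM or below in every library. Of 5 megakaryocyte markers 3 were tested and all 3 rose, including Pf4, with sums of 41.4 to 44.5 TPM in WT and 148.1 to 155.3 TPM in Tet2 KO. Gp9 and Gp1bb were not tested. Gp9 was at 0.25 TPM or below, and Gp1bb was lower in Tet2 KO, at 0.39 and 0.18 TPM in WT against 0 and 0.04 TPM. Both sums were higher in Tet2 KO, as were Cxcl2, Cxcl3, Ccl3, Pf4 and Ppbp, and the markers' part in those differences was not tested. The T and NK cell markers summed to 0.25 to 0.33 TPM, with Cd3e, Cd3g and Ncr1 at 0, and the B cell markers to 0.13 to 0.82 TPM, with Pax5 at 0. Of the stromal and endothelial markers, Pdgfrb alone was tested, and it rose from 4.66 and 4.59 to 16.7 and 17.71 TPM (limma adjusted p = 2.86e-11). The others were at 0.26 TPM or below in every library, with Cxcl12 at 0. Pdgfrb moved with Cxcl2 and Cxcl3, and its part in their differences was not tested.

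The genes most like Cxcl3 across the 4 libraries, by Euclidean distance of log2(TPM + 1) from each gene's own mean, were Tns1 (distance 0.293), Gzmb (0.3004), Trp53i11 (0.314), Trib3 (0.322) and Kit (0.325). Those most like Ccl6, the gene with the largest fall among the 9 on that scale, were Erp29 (0.00675), Cdc42ep4 (0.02004), Id2 (0.0292), Cst3 (0.0299) and the alarmin gene S100a9 (0.0325). All 5 genes near Cxcl3 had log2 fold changes between 3.53 and 4.02, and all 5 near Ccl6 between -0.82 and -0.79. These like values follow from how the genes were picked and are a description. Tns1 and Trp53i11 passed the filter in Tet2 KO only.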

How the data were processed

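Total RNA came from QIAzol lysates and a stranded mRNA kit made the libraries, per the labels' protocols. STAR and RSEM were used with mm10, per the submitters' processing notes. The sources used here state no versions, annotation or filters. The authors deposited TPM with 2 decimals in 24589 rows, 92 of them ERCC spike-ins, which were left out of the tests. TPM hold no depth, so no interval or count floor was computed. The 2 Tet2 KO were compared with the 2 WT libraries in limma 3.58.1 (R 4.3.3, statmod 1.5.0) on log2(TPM + 1), with trend and robust estimation. Tested genes had 1 TPM or more in 2 or more of the libraries. P-values are two-sided, with Benjamini-Hochberg adjustment over 11452 genes. The steps were tested on simulated data. The chemokines and all lists were chosen with earlier results of these data known. Named genes were the 10 chemokines, 9 receptors and relatives, up to 4 genes per list and up to 3 neighbours per gene group, called, at least 2-fold and at least 5 TPM in the higher group, and the 5 genes nearest to the chemokines with the largest rise and fall; 1 receptor and 1 marker are not reported here, and exceptions are marked or given as values only. Alternatives were scalings, quantile normalization, pseudocounts of 0.1 and 5, filters, variance settings, a replicate block and leaving out each library. Positions and shared 50-base stretches are from GENCODE M21, promoters and neighbours from RefSeq GRCm38.p6, both on the build of mm10. Figures used matplotlib 3.10.9.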

Additional observations from a re-analysis of the deposited data

How the results depend on the processing

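The 5 higher and 4 lower chemokines became 4 and 5 after median-ratio and after spike-in scaling, and 4 and 3 after quantile normalization. Leaving out each library gave 4 to 5 higher and 4 lower. The log2 fold change of Ccl7 turned to -0.11 after median-ratio and -0.20 after spike-in scaling, and that of Ccl9 to 0.025 after quantile normalization. The first 2 scalings multiply each library by 1 factor, and the cause of the quantile value was not tested. Over all genes, 6225 higher and 2238 lower genes became 4162 and 3682 after median-ratio scaling, 3394 and 4324 after spike-in scaling, and 3915 and 3741 after quantile normalization. Median-ratio scaling gave 1 lower other chemokine receptor (Cxcr4), 3 lower decay factors and 8 lower signalling genes. Spike-in scaling gave 1, 4 and 10, with 8 higher and 9 lower transcription factors and NF-kB regulators. It also gave 4 higher inducing receptors and adaptors and 8 higher signalling genes. Quantile normalization gave 1 lower other receptor and 3 lower decay factors. With a filter of 5 TPM, 1 other chemokine was lower and 0 proteases were higher, since fewer genes were tested. With no filter, 2 of the 9 receptors and relatives were higher, and 1 other receptor was higher and 1 lower. Without the variance trend 7 inducing receptors and adaptors were lower in place of 11, and the cause was not tested. Leaving out each library gave 1 to 2 lower decay factors, 2 without Tet2 KO replicate 1. With the replicate number as a block, 6179 genes were higher and 2211 lower, and 4 chemokines higher and 4 lower. The labels share only the number between genotypes (correlation of deviations -0.0561 over genes), so this is no paired design. With 2 libraries per group and no depth in TPM, differences of genes near 1 TPM, such as Cxcl1, are poorly resolved.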
